A study of Mus musculus with 24 samples.

Results

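The genes described here are 10 enzymes and regulators of malonyl-CoA and fatty acid synthesis, namely Acaca, Acacb, Mlycd, Fasn, Aacs, Scd1, Scd2, Elovl6, Srebf1 and Me1. They were taken by gene symbol out of 36413 gene names on a 1-colour Agilent array, where 15 of 55681 probes carried these symbols. RNA came from the left ventricle of 24 male mice, 6 in each of 4 groups. The 4 groups were mG4H STZ (the GLUT4 transgene and streptozotocin), mG4H VEH (the transgene and citrate buffer), CON STZ (control genotype and streptozotocin) and CON VEH (control genotype and buffer). mG4H mice carried an inducible transgene for the glucose transporter GLUT4, expressed in cardiac muscle cells. Streptozotocin (STZ), which destroys the insulin-producing cells of the pancreas, was injected at 55 mg/kg on 5 consecutive days, VEH mice received the buffer alone, the transgene was induced 2 weeks later and hearts were taken 2 weeks after induction, between 6 and 7 in the morning. The labels give neither the promoter of the transgene nor whether CON mice carried part of the inducible system or received the inducer, and they state that each group held at least 1 mouse with a sibling in another group, so the mice are not all unrelated.

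Malonyl-CoA is made from acetyl-CoA by acetyl-CoA carboxylase and has separate uses. In the cytosol it is the carbon donor for fatty acid synthase, and at the mitochondrial outer membrane it inhibits carnitine palmitoyltransferase, the gate for fatty acid oxidation. The heart burns fatty acids and makes few of them, so in cardiac muscle malonyl-CoA is known mainly as the brake on oxidation, set by the carboxylase that makes it and the decarboxylase that removes it.

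Signals are given as log2 of the array's processed signal minus log2 of that array's own 75th percentile, so 0 is the 75th percentile of all gene probes on the array and a difference of 1 is a doubling. The 75th percentile lay between 370 and 583 intensity units over the 24 arrays, and pairs of arrays correlated at 0.961 to 0.995 over the genes tested. A gene was represented by its brightest probe, and "rose", "fell" or "passed" refers to a Benjamini-Hochberg adjusted p under 0.05 over the 28235 genes tested with limma. All 10 genes were tested, each with its representing probe well above background on all 24 arrays. Blood glucose at 4 weeks was 500 to 601 in mG4H STZ mice and 131 to 152 in mG4H VEH mice, and 600 to 601 in CON STZ mice against 117 to 164 in CON VEH mice, with no unit in the labels. The highest value, 601, recurred among mice of both STZ groups, and whether it was an upper limit of the reading was not tested. Body weight was 21.1 to 28.1 in mG4H STZ mice and 25.5 to 31.2 in mG4H VEH mice, and 21.8 to 27.8 in CON STZ mice against 27.9 to 36.4 in CON VEH mice, so the CON groups did not overlap in weight. In 3 hearts the mean log2 signal of 4 atrial cardiomyocyte markers (Myl7, Sln, Myl4, Bmp10) stood apart: it was 0.83 in mG4H STZ mouse 4 and 1.63 and 1.79 in mG4H VEH mice 5 and 6, where the other 21 hearts lay at -2.13 to -0.65. For the 10 genes, calls that rest on these hearts are given with and without them, a choice made after seeing the data. Calls for other genes are given with them only, except those for STZ in mG4H hearts. For STZ averaged over genotypes, 2908 of all genes passed with these hearts and 1999 without them. The ventricular markers Myh6, Myl2, Myl3, Tnnt2, Tnni3, Actc1 and Ryr2 were well above background on all 24 arrays. The probe for Slc2a4, the gene of GLUT4, did not pass between the genotypes (mG4H minus CON, log2: -0.20 under VEH and 0.20 under STZ, adjusted p of 0.9999 and 0.999994), and since the labels do not say whether the transgene's transcript holds this probe's sequence, it cannot check the genotype labels.

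The probes behind the results are shown because each value below is the brightness of 1 short stretch of a transcript. For the genes whose signal passed the test in any comparison, the opening 30 of the 60 probe bases are printed in the direction of the transcript, with mm9 coordinates from the array files.
Acaca, chr11:84215093-84215122, plus strand, the representing probe: gcttcagtccaatgcactcttctcacgttt
Acaca, chr11:84211638-84211667, plus strand: tgtgatagaggagaacatcaaatacatcag
Acaca, chr11:84009021-84009050, plus strand: tcataattgggtctgtgtctgaagacaact
Aacs, chr5:125997524-125997553, plus strand: cctgggctctttctattgtgactgtcctct
Fasn, chr11:120667696-120667725, minus strand: attggtagggtacaaaggtgttcagaggat
Scd2, chr19:44381024-44381053, plus strand: acatttggggatcctctgcagaggagtatt
Me1, chr9:86475107-86475136, minus strand, the representing probe: cctaatgacaacttgtgactaacggtttct

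The comparison of mG4H with CON hearts asks what the GLUT4 transgene goes with, without and with diabetes. Without diabetes, 2 of the 10 genes rose in mG4H hearts, Acaca and Aacs, and 0 fell, where 0.0354% of all genes tested rose and 0.0815% passed in either direction. The same 2 genes were those without overlap between the groups, which held for 1.02% of all genes. The 10 genes were chosen with earlier results of these data known. Their counts beside the shares of all genes, here and below, are therefore a description and not a test of the pathway. Acaca was 2.06-fold and Aacs 1.62-fold higher in mG4H VEH than in CON VEH hearts. Under STZ 0 of the 10 passed between mG4H and CON, where 0.0106% of all genes did, while 4 of the 10 had an unadjusted p under 0.05 (3.55% of all genes). The median difference between mG4H and CON over the 10 genes was 0.20 under VEH and 0.085 under STZ (log2), beside -0.0084 and 0.015 over all genes.

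**Figure D1:**
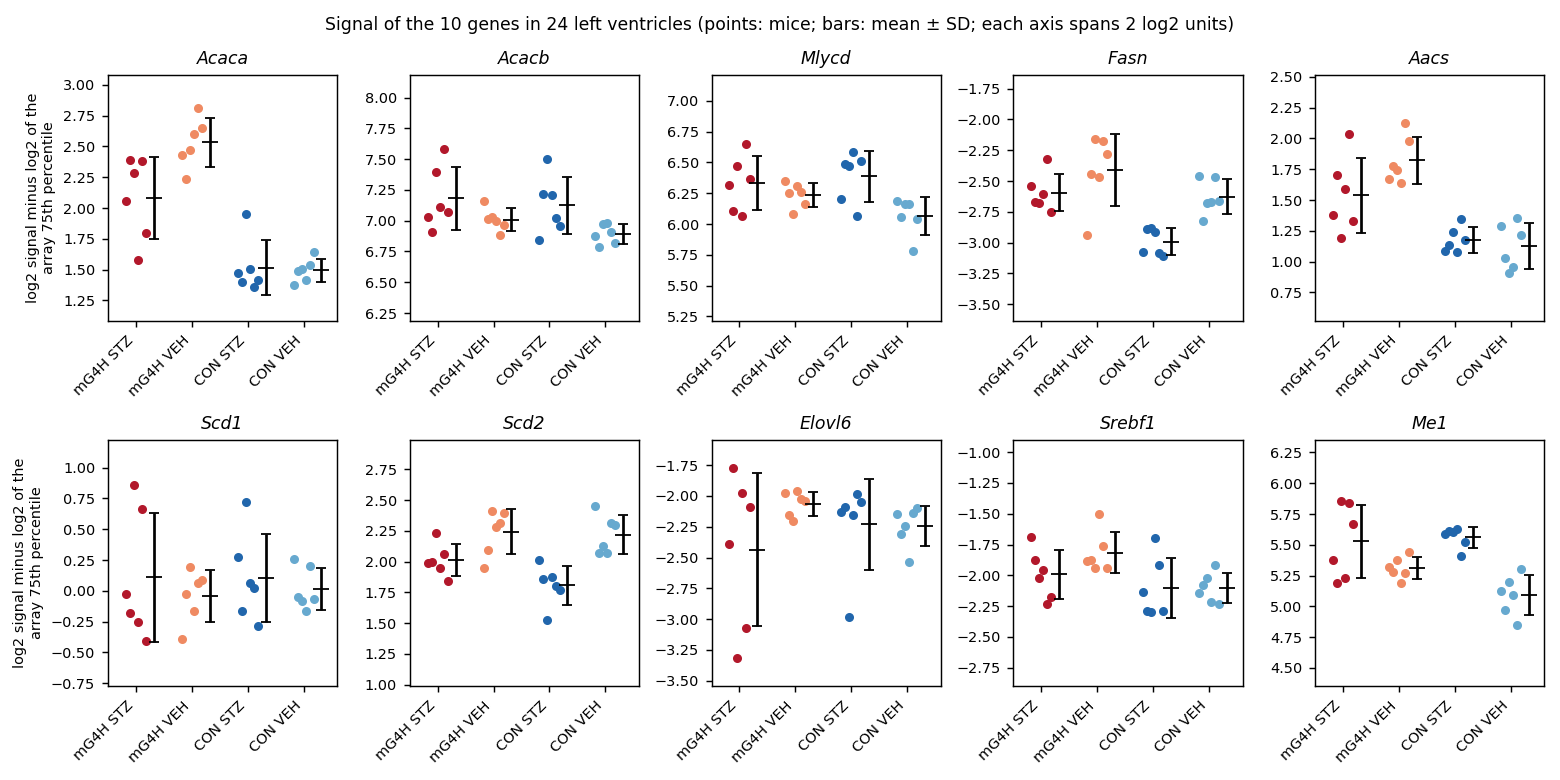
Signal of each of the 10 genes in every heart (log2 signal minus log2 of the array's 75th percentile; each axis spans 2 log2 units), with 1 point per mouse and the mean ± SD of 6 mice beside each group. Acaca in mG4H VEH hearts lies at 2.24 to 2.81, above all CON VEH hearts at 1.37 to 1.64, and Me1 in CON STZ hearts lies at 5.41 to 5.63, above all CON VEH hearts at 4.85 to 5.30.

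Acaca encodes the cytosolic acetyl-CoA carboxylase, which supplies malonyl-CoA for fatty acid synthesis. Its lowest, median and highest signals were 2.24, 2.54 and 2.81 in mG4H VEH hearts, against 1.37, 1.49 and 1.64 in CON VEH hearts. Under STZ they were 1.58, 2.17 and 2.39 in mG4H hearts, against 1.36, 1.44 and 1.96 in CON hearts. The genotypes did not overlap under VEH, whereas under STZ the highest CON heart was brighter than the 2 dimmest mG4H hearts. The log2 difference between mG4H and CON was 1.04 ± 0.13 (SE; n = 6 each; adjusted p = 0.000529, limma) under VEH and 0.57 ± 0.13 (adjusted p = 0.299) under STZ. Within the slides, each holding 2 to 8 of the arrays, the VEH difference was 1.20, 1.05, 0.76 and 0.97, so mG4H was higher on each of the 4. It passed with each single array left out and without the 3 hearts high in atrial markers, 2 of which were the brightest for Acaca in mG4H VEH (2.81 and 2.65): the difference was then 0.94 (adjusted p = 0.00345). It did not pass when arrays were scaled to their median (difference 1.09, adjusted p = 0.230).

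STZ was set against VEH for Acaca in each genotype. Acaca averaged 2.08 ± 0.33 in mG4H STZ and 2.53 ± 0.20 in mG4H VEH hearts (SD, n = 6 each), a log2 difference of -0.45 ± 0.13 (SE) that did not pass (adjusted p = 0.136). In CON hearts it averaged 1.52 ± 0.22 under STZ and 1.49 ± 0.094 under VEH, a difference of 0.022 (95% confidence interval -0.25 to 0.30). The difference between these STZ effects, mG4H minus CON, was -0.47 (interval -0.87 to -0.083) with an adjusted p of 0.99997, so a different STZ effect in the genotypes was not established. With limma's array weights, which give noisier arrays less say, the STZ effect in mG4H was -0.59 and passed (adjusted p = 0.0150).

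The other probes of Acaca were close to background. A probe that begins at base 6880 of the transcript, where the representing probe begins at base 8971, averaged -5.06 in mG4H STZ, -4.64 in mG4H VEH, -5.30 in CON STZ and -5.94 in CON VEH hearts. It was well above background in 3, 5, 1 and 0 of 6 hearts of those groups, so its signal is measured mostly in transgenic hearts. It entered the fit mainly through transgenic hearts, so no test of it is given. The remaining probe, at base 81, was well above background on 3 of 24 arrays, all of them of mG4H hearts, and was left out by the filter on dim probes.

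Acacb and Mlycd set the pool of malonyl-CoA that faces the mitochondria: Acacb encodes the carboxylase of the mitochondrial outer membrane, the main form in heart, and Mlycd encodes malonyl-CoA decarboxylase, which turns malonyl-CoA back into acetyl-CoA. Neither passed between mG4H and CON. Acacb averaged 7.18 ± 0.26 in mG4H STZ, 7.01 ± 0.092 in mG4H VEH, 7.12 ± 0.23 in CON STZ and 6.89 ± 0.079 in CON VEH hearts. The mG4H minus CON difference for Acacb under VEH was 0.12 (interval -0.11 to 0.35). Mlycd averaged 6.33 ± 0.22 in mG4H STZ, 6.24 ± 0.097 in mG4H VEH, 6.39 ± 0.20 in CON STZ and 6.06 ± 0.15 in CON VEH hearts.

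Under STZ both of these genes had positive differences that missed the threshold. For Acacb the STZ minus VEH difference averaged over genotypes was 0.20 ± 0.078 (SE; adjusted p = 0.106). A second Acacb probe gave 0.36 ± 0.098 and passed among all probes (adjusted p = 0.0244), where 8.72% of probes passed. For Mlycd the difference in CON hearts was 0.32 ± 0.11 (adjusted p = 0.101) and the average over genotypes was 0.21 ± 0.075 (adjusted p = 0.0833). Both averages passed under quantile normalization (adjusted p = 0.0124 for Acacb and 0.0267 for Mlycd).

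Aacs encodes acetoacetyl-CoA synthetase, the cytosolic enzyme that activates the ketone body acetoacetate for lipid synthesis. Its lowest, median and highest signals were 1.64, 1.76 and 2.13 in mG4H VEH hearts, against 0.91, 1.12 and 1.35 in CON VEH hearts. Under STZ they were 1.19, 1.49 and 2.03 in mG4H hearts, against 1.08, 1.15 and 1.34 in CON hearts. As for Acaca, the genotypes were apart under VEH and overlapped under STZ. The log2 difference was 0.70 ± 0.12 (SE; n = 6 each; adjusted p = 0.0214) under VEH and 0.36 ± 0.12 (adjusted p = 0.815) under STZ, and the slides gave 0.63, 0.80, 0.62 and 0.83 under VEH. The Aacs call was close to the threshold: it did not pass without the 2 arrays of the slide scanned on another day (0.67, adjusted p = 0.110), with body weight as a covariate (0.71, adjusted p = 0.118), with median scaling (0.74, adjusted p = 0.99999), or without any 1 of CON VEH mice 2, 3 and 4 and mG4H VEH mice 5 and 6 (adjusted p of 0.0548 to 0.0907). The same mice 5 and 6, high in atrial markers, were also the brightest for Aacs (2.13 and 1.98), and without the 3 hearts high in those markers the difference was 0.58 and did not pass (adjusted p = 0.374).

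Over the 24 arrays, after subtracting slide means, Acaca and Aacs correlated at r = 0.84, a description in which the group difference takes part. Between groups lay 81.1% of the variance of Acaca and 68.7% of that of Aacs. Group means were left in here and in the correlations that follow, so whether the genes varied together within a group was not tested. The gene most like Acaca was Mid1ip1 (r = 0.85), whose protein is known to promote the assembly of acetyl-CoA carboxylase into its active polymer. The genes most like Aacs were Adap1 (r = 0.87) and Acaca. Mid1ip1 averaged 4.47 ± 0.36 in mG4H STZ, 4.63 ± 0.17 in mG4H VEH, 3.92 ± 0.31 in CON STZ and 4.17 ± 0.13 in CON VEH hearts. Its mG4H minus CON difference of 0.47 under VEH did not pass (adjusted p = 0.694), although the groups did not overlap there.

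**Figure D2:**
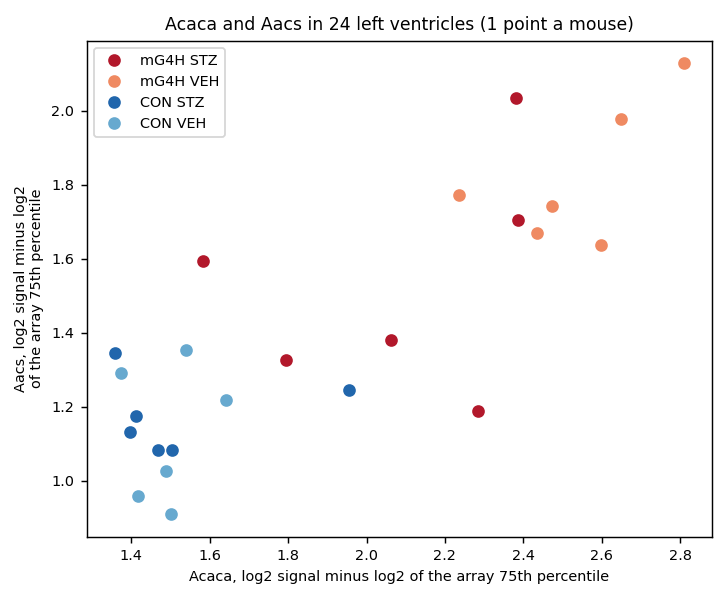
Acaca (x axis) against Aacs (y axis) in each of the 24 hearts, both as log2 signal minus log2 of the array's 75th percentile, coloured by group. The mG4H VEH hearts lie at the upper right, the CON VEH and CON STZ hearts at the lower left, and the mG4H STZ hearts spread between them; r is 0.84 after subtracting slide means.

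The sequence before the start of Aacs is shown since Aacs rose in the same comparison as Acaca, and that of Fasn for comparison. RefSeq's promoter table (GRCm38.p6) held entries for 8 of the 10 genes, and Scd1 and Scd2 were without one. The window listed for Acaca was not used because it lies inside the gene. Motifs were searched on both strands in the 250 bases before the listed start: CACGTG (the E-box, held by 6.02% of 32851 promoters), CCAAT (the NF-Y box, 33.8%) and GGGCGG (the Sp1 box, 32.7%). The Aacs window held none of these 3 runs of letters, and the Fasn window held 3 NF-Y boxes, in capitals, 2 of which overlap on opposite strands.
Aacs, chr5:125475623-125475872, plus strand: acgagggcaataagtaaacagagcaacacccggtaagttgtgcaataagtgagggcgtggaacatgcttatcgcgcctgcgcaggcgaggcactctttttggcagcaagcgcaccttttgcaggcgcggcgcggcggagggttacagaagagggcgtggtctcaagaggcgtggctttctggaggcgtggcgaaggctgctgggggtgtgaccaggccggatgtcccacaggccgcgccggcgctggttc
Fasn, chr11:120824548-120824797, minus strand: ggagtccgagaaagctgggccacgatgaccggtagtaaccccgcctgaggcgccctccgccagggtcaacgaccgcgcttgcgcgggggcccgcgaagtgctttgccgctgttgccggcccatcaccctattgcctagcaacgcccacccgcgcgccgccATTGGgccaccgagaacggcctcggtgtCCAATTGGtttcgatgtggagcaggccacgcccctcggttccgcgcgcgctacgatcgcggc

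The comparison of STZ with VEH hearts asks what diabetes goes with in each genotype. In CON hearts 2 of the 10 genes passed, Me1 higher and Scd2 lower, where 3.96% of all genes passed (1.66% higher and 2.3% lower), and 3 did not overlap between the groups (Me1, Scd2 and Fasn), as held for 4.59% of all genes. In mG4H hearts 0 of 10 passed and 0 were without overlap, where 0.266% and 1.67% of all genes were, and 3 had an unadjusted p under 0.05, as did 3955 of all 28235 genes. Averaged over genotypes 3 of 10 passed, Me1 higher and Scd2 and Fasn lower, where 10.3% of all genes passed (4.51% higher and 5.79% lower). A difference of the STZ effect between the genotypes was found for 0 of the 10 by the test of the difference itself (0 passed and 1 had an unadjusted p under 0.05, as did 1.77% of all genes, limma). By that test 0% of all genes passed, 1 did with slide as a block and 6 did with array weights, so the different counts in CON and mG4H hearts were not shown to be a difference between the genotypes. These comparisons share mice: the CON VEH hearts also stand in the genotype comparison above.

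**Figure D3:**
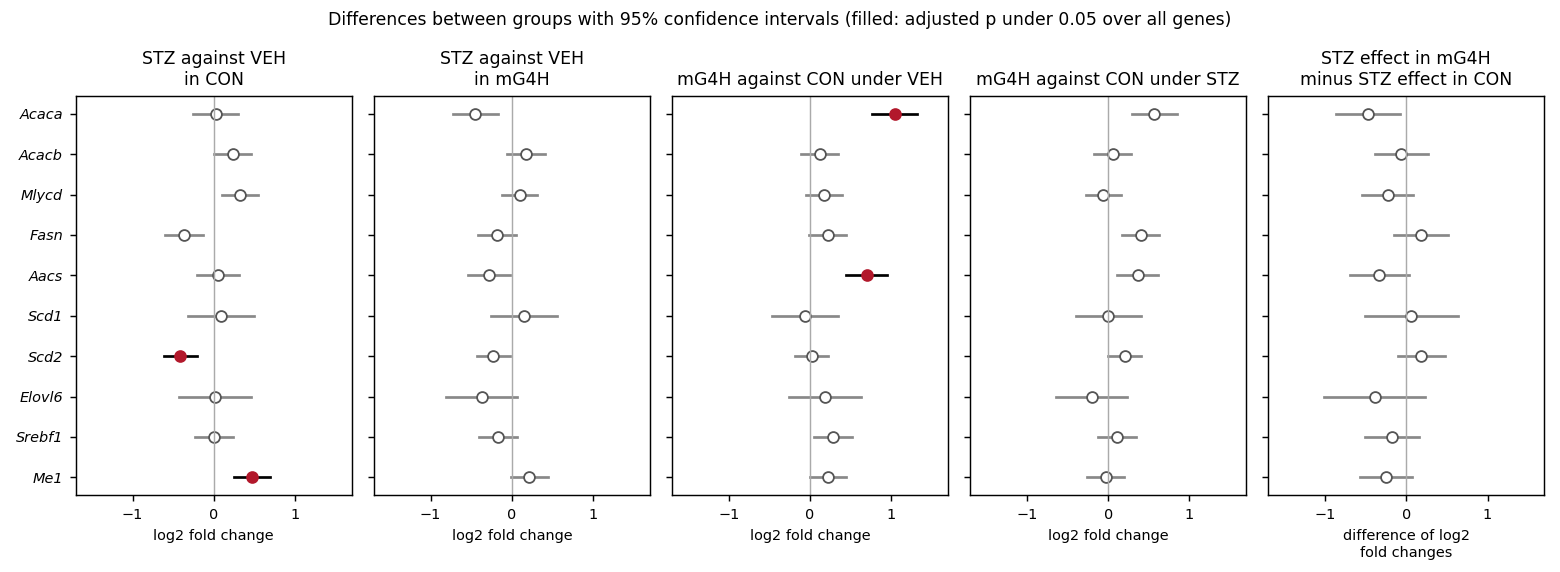
Log2 fold change with its 95% confidence interval for the 10 genes in each comparison and, at the right, the difference of the STZ effects; filled points passed at an adjusted p under 0.05 over all genes. Acaca (1.04) and Aacs (0.70) pass for mG4H against CON under VEH, and Me1 (0.47) and Scd2 (-0.41) pass for STZ against VEH in CON.

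Me1 encodes the cytosolic malic enzyme, which makes NADPH, the reductant of fatty acid synthesis, from malate. Its lowest, median and highest signals were 5.41, 5.59 and 5.63 in CON STZ hearts, against 4.85, 5.11 and 5.30 in CON VEH hearts. In mG4H hearts they were 5.19, 5.52 and 5.85 under STZ, against 5.19, 5.30 and 5.44 under VEH. All CON STZ hearts were above all CON VEH hearts, while the mG4H groups overlapped, with 3 STZ hearts above and 3 among the VEH hearts. The STZ minus VEH difference was 0.47 ± 0.11 (SE; n = 6 each; a fold of 1.38; adjusted p = 0.0155) in CON and 0.21 ± 0.11 (adjusted p = 0.385) in mG4H hearts. All 3 Me1 probes passed in CON hearts when probes were tested singly, with differences of 0.47, 0.48 and 0.45 (adjusted p = 0.0194, 0.0165 and 0.0488), where 3.08% of probes passed. The genes most like Me1 over the 24 arrays were Decr1 (r = 0.92), which encodes a mitochondrial enzyme of the oxidation of unsaturated fatty acids, and Chkb (r = 0.91), which encodes a choline kinase.

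**Figure D4:**
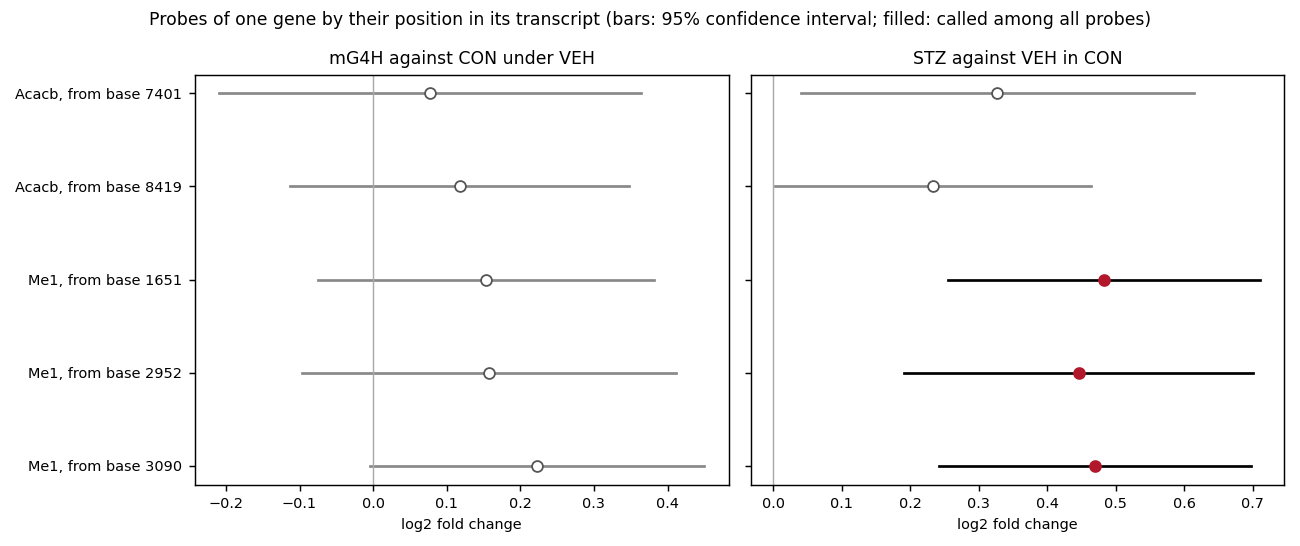
Log2 fold change with its 95% confidence interval for each probe of Acacb and Me1, by its first base in the transcript, for mG4H against CON under VEH (left) and STZ against VEH in CON (right); filled points passed among all probes. The 3 Me1 probes passed for STZ against VEH in CON, at 0.47, 0.48 and 0.45.

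Scd2 encodes a stearoyl-CoA desaturase, which puts the double bond into newly made saturated fatty acids. Its lowest, median and highest signals were 1.52, 1.83 and 2.01 in CON STZ hearts, against 2.07, 2.21 and 2.45 in CON VEH hearts. In mG4H hearts they were 1.84, 2.00 and 2.23 under STZ, against 1.95, 2.30 and 2.41 under VEH. The CON groups did not overlap and the mG4H groups did. The difference was -0.41 ± 0.098 (SE; 1.33-fold lower; adjusted p = 0.0188) in CON, -0.23 ± 0.098 (adjusted p = 0.290) in mG4H and -0.32 ± 0.070 (adjusted p = 0.00472) averaged over genotypes. Within slides the CON difference was -0.55, -0.13 and -0.53, and it did not pass with normexp background correction (-0.30, adjusted p = 0.0950) or without CON VEH mouse 1 (-0.37, adjusted p = 0.0523).

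Fasn encodes fatty acid synthase, which builds palmitate from malonyl-CoA. Its lowest, median and highest signals were -3.11, -2.99 and -2.88 in CON STZ hearts, against -2.82, -2.66 and -2.46 in CON VEH hearts. In mG4H hearts they were -2.75, -2.64 and -2.32 under STZ, against -2.94, -2.36 and -2.16 under VEH. The CON STZ hearts were below all CON VEH and all mG4H STZ hearts. Averaged over genotypes Fasn fell by 0.28 ± 0.079 on the log2 scale (SE; 1.21-fold lower; adjusted p = 0.0278), with -0.37 in CON (adjusted p = 0.0704) and -0.18 in mG4H hearts (adjusted p = 0.503). The mG4H minus CON difference under STZ was 0.40 ± 0.11 (adjusted p = 0.461), with groups that did not overlap, which was so for 0.216% of all genes. The average fall missed the threshold under 8 of 14 other settings, among them quantile normalization (adjusted p = 0.181) and slide as a block (adjusted p = 0.0586), without the 3 hearts high in atrial markers (-0.23, adjusted p = 0.122), and without any 1 of CON VEH mice 1 and 5 and mG4H VEH mice 3 and 5 (adjusted p of 0.0504 to 0.0535).

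Body weight differed along with STZ. With weight at 4 weeks as a covariate 0 of 10 genes passed for STZ in CON or for the average. The differences were then 0.47 for Me1 in CON (adjusted p = 0.223), -0.45 for Scd2 in CON (adjusted p = 0.170) and -0.22 for the average of Fasn (adjusted p = 0.525). Since weight did not overlap between the CON groups, its part and that of STZ cannot be told apart there. With median scaling 0 of 10 passed as well, and the same differences were 0.43 for Me1, -0.45 for Scd2 and -0.35 for Fasn.

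Scd1, Elovl6 and Srebf1 passed in no comparison. Scd1 encodes another stearoyl-CoA desaturase, Elovl6 the elongase that lengthens palmitate, and Srebf1 the sterol regulatory element-binding protein that drives lipogenic genes in liver. Scd1 averaged 0.11 ± 0.52 in mG4H STZ, -0.041 ± 0.21 in mG4H VEH, 0.11 ± 0.36 in CON STZ and 0.018 ± 0.17 in CON VEH hearts. Elovl6 averaged -2.44 ± 0.62 in mG4H STZ, -2.06 ± 0.098 in mG4H VEH, -2.23 ± 0.37 in CON STZ and -2.25 ± 0.16 in CON VEH hearts. For both genes the spread was wider in the STZ groups than in the VEH group of the same genotype. That was also so for Acaca, Acacb, Mlycd and Srebf1. The 95% intervals of the STZ effect in mG4H hearts were wide, at -0.81 to 0.066 for Elovl6 and -0.25 to 0.56 for Scd1. Srebf1 averaged -1.99 ± 0.20 in mG4H STZ, -1.82 ± 0.17 in mG4H VEH, -2.10 ± 0.25 in CON STZ and -2.10 ± 0.12 in CON VEH hearts, and its mG4H minus CON difference under VEH was 0.29 (interval 0.051 to 0.52; adjusted p = 0.9999).

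The same 3 STZ hearts were low in Elovl6 and high in Scd1. Elovl6 was -3.31 and -3.07 in mG4H STZ mice 3 and 5 and -2.98 in CON STZ mouse 3, while the other STZ hearts lay between -2.39 and -1.77. Scd1 in those 3 hearts was 0.86, 0.66 and 0.72, while the other STZ hearts lay between -0.40 and 0.27. Over all 24 arrays the pair correlated at r = -0.78 after subtracting slide means, the most negative of the 45 pairs. The other close pairs were Acacb with Mlycd (0.84), Mlycd with Me1 (0.80), Acacb with Me1 (0.76), Fasn with Aacs (0.73) and Fasn with Scd2 (0.73). The 3 hearts low in Elovl6 also had the highest Acacb signals, at 7.39, 7.59 and 7.50, with the next heart at 7.21. Elovl6 correlated with Acacb at -0.69 and with Mlycd at -0.61, so the same hearts take part in several of these pairs. These correlations describe 24 arrays that share the 4 groups. Group means were left in, so genes that differ between the same groups correlate for that reason too.

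Of the 67 other genes listed around this pathway, 63 were tested. Between mG4H and CON 0 of 63 passed, under VEH or under STZ, where 0.0815% and 0.0106% of all genes did. An unadjusted p under 0.05 was held by 4 and 5 of the 63 (limma), beside 2.87% and 3.55% of all genes. At such shares 0 of 63 does not set these genes apart from the rest. Under STZ in CON hearts 7 were higher and 3 lower, in mG4H hearts 0 were higher and 1 was lower, and averaged over genotypes 8 were higher and 8 lower. The shares that passed among all genes were 3.96%, 0.266% and 10.3%. The median STZ difference over the 63 was -0.012 in CON and -0.014 averaged, beside 0.027 and 0.048 over all genes.

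Among regulators and targets of acetyl-CoA carboxylase, 14 of 15 genes were tested, and 2 rose and 1 fell under STZ in CON hearts. Thrsp, which encodes a lipogenic protein known from liver and a relative of Mid1ip1, averaged 3.79 ± 0.40 in CON STZ and 5.02 ± 0.12 in CON VEH hearts, and 3.96 ± 0.40 in mG4H STZ and 4.97 ± 0.25 in mG4H VEH hearts. It fell by 1.23 in CON (adjusted p = 0.000453) and by 1.01 in mG4H hearts (adjusted p = 0.0173), and was the single gene of these lists to pass in both. Without the 3 hearts high in atrial markers 0 of all genes passed in mG4H hearts, Thrsp included. Cpt1a and Cpt1b encode the carnitine palmitoyltransferases that malonyl-CoA inhibits. Cpt1a rose by 0.66 (1.97 ± 0.18 in CON STZ, 1.32 ± 0.17 in CON VEH; adjusted p = 0.00232) and Cpt1b by 0.53 (6.05 ± 0.14 in CON STZ, 5.52 ± 0.19 in CON VEH; adjusted p = 0.0267).

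Among other elongases and desaturases, 13 of 16 were tested, and 3 rose and 0 fell in CON hearts under STZ, namely Scd4 (1.595, adjusted p = 0.00295), Elovl1 (0.56, adjusted p = 0.00893) and Fads3 (0.52, adjusted p = 0.0384). Scd4, a desaturase of heart, averaged -1.01 ± 0.23 in CON STZ and -2.61 ± 0.43 in CON VEH hearts, a change opposite in sign to that of Scd2. Elovl7 passed in the average alone, at -1.14 (adjusted p = 0.00668). Among regulators of lipogenic transcription, 1 of 16 rose (Scap, 0.30, adjusted p = 0.0234) and 1 fell (Usf2, -0.55, adjusted p = 0.00125) in CON hearts, but the 2 Usf2 probes disagreed, at -0.55 and 0.19. Averaged over genotypes Pparg (0.52, adjusted p = 0.0177) and Scap were higher, and Mlxipl, which encodes the carbohydrate response element-binding protein (-0.41, adjusted p = 0.0201), and Usf2 were lower.

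Of 8 genes of acetyl-CoA and NADPH supply, G6pdx, which encodes the first enzyme of the pentose phosphate pathway, rose in CON hearts (0.31, adjusted p = 0.0407) and 0 fell. Of 6 genes of glycerolipid synthesis, Pnpla3, which encodes a lipid droplet protein, fell in CON hearts (-1.31, adjusted p = 0.0164), though its second probe gave -0.12. Of 6 genes of mitochondrial fatty acid synthesis 0 passed in CON hearts, and averaged over genotypes Oxsm (-0.23, adjusted p = 0.00883) and Cbr4 (-0.25, adjusted p = 0.0243) were lower. In that average the second Oxsm probe gave -0.050, while both Cbr4 probes gave -0.25.

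**Figure D5:**
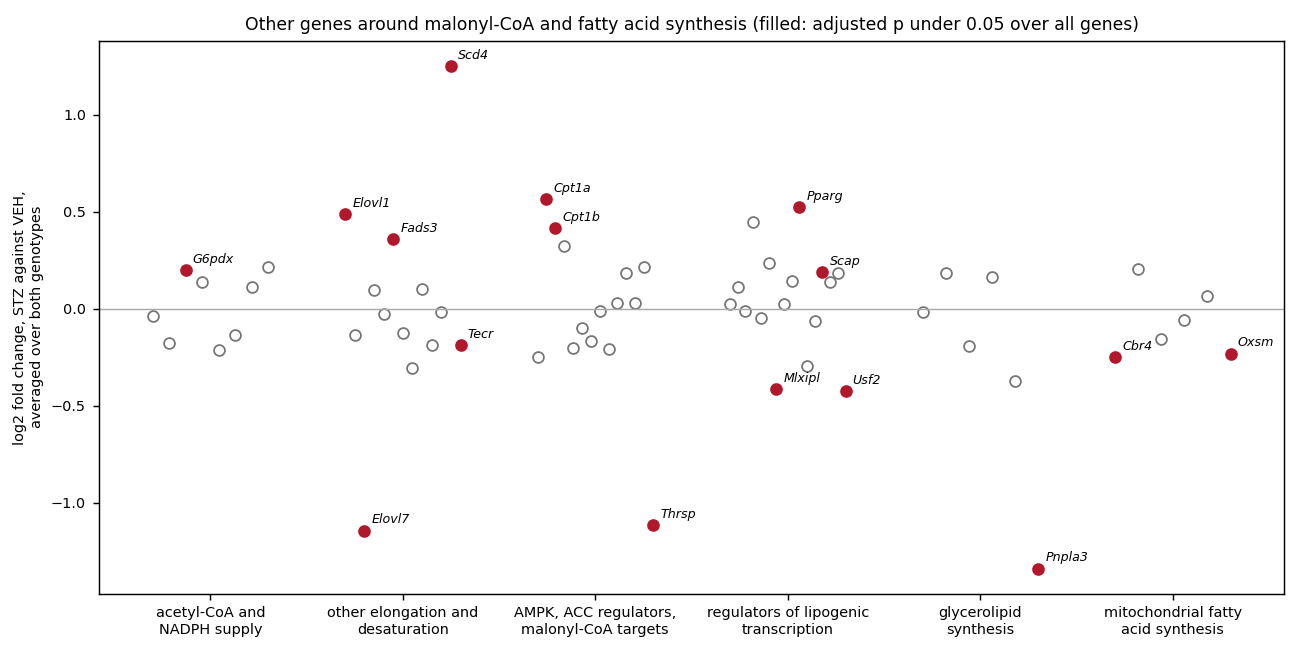
Log2 fold change of STZ against VEH, averaged over both genotypes, for the 63 other genes tested in 6 lists around malonyl-CoA and fatty acid synthesis; filled points passed over all genes. Filled points stand on both sides of 0, 8 above it and 8 below it, with Scd4 highest (1.25) and Pnpla3 (-1.34), Elovl7 (-1.14) and Thrsp (-1.12) lowest.

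Fat cells carry much of the lipogenic RNA of a tissue, and in a piece of ventricle a change in their number and in RNA per cell cannot be told apart. The mean log2 signal of 9 white adipocyte markers was -2.93 to -2.22 in mG4H STZ, -2.74 to -2.28 in mG4H VEH, -2.82 to -1.95 in CON STZ and -3.23 to -2.29 in CON VEH hearts. Of these markers 8 were well above background on all 24 arrays and Lep on 6, and the brown adipocyte marker Ucp1 on 2. Cidea, the other brown adipocyte marker, which encodes a lipid droplet protein, averaged 6.07 ± 0.27 in mG4H STZ, 5.68 ± 0.098 in mG4H VEH, 6.29 ± 0.29 in CON STZ and 5.25 ± 0.12 in CON VEH hearts. Cidea rose under STZ by 1.04 in CON (adjusted p = 7.17e-05, limma) and by 0.72 in the average (adjusted p = 3.09e-05). In both Me1 rose and Scd2 fell, and Fasn fell in the average. Its difference of 0.39 in mG4H hearts did not pass (adjusted p = 0.160). Under VEH Cidea was 0.43 higher in mG4H than in CON hearts, which did not pass, with ranges of 5.56 to 5.80 and 5.13 to 5.47. Over all arrays Cidea averaged 5.82 and Ucp1 -5.90, and whether the Cidea signal came from fat cells was not tested. Between mG4H and CON 0 of the 9 white adipocyte markers passed, where 0.0815% of all genes did under VEH and 0.0106% under STZ. Under STZ 1 was higher in CON hearts (Tusc5, 1.07, adjusted p = 0.000200, limma) and 1 was higher in mG4H hearts. Averaged over genotypes 1 was higher and 1 lower. The shares of all genes that passed in these comparisons were 3.96%, 0.266% and 10.3%. Without the 3 hearts high in atrial markers 0 of all genes passed for STZ in mG4H hearts, so that call was not kept. Over the 24 arrays each of the 10 genes correlated with the marker mean at -0.17 to 0.24, and the part of fat cells in the results was not tested beyond that.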

How the data were processed

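Left ventricular RNA of 24 mice was hybridised to 1-colour Agilent arrays, 1 mouse per array. The deposited files hold probe intensity as the authors' scanner software gave it (Agilent Feature Extraction 10.5.1.1, annotation on mm9, per the file headers); the submitters' processing notes also name limma. The processed signal, already background-corrected by that software, was converted to log2 here and each array's 75th percentile was subtracted; the deposited intensity is not normalised between arrays. Control spots and flagged outlier spots were left out. Probes well above background on at least 6 arrays were kept (39766 of 55681), and the probe with the highest mean stood for its gene. Group means of all 24 arrays were fitted with limma 3.58.1 in R 4.3.3 (lmFit, contrasts.fit, eBayes, two-sided), with Benjamini-Hochberg adjustment over 28235 genes. The procedure was tested on simulated data.

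Precision is set by the 24 arrays. Slide membership came from the array identifiers: 3 slides hold all 4 groups, and the fourth holds 1 mG4H VEH and 1 CON VEH array scanned on another day. The 10 genes and the lists were chosen with earlier results of these data known. All 10 genes are named in each comparison. From each list up to 4 genes past the threshold by size of change are named in each comparison, and for each gene that passed the 2 most correlated gene symbols. The alternatives were another background correction, 2 other scalings, 2 other filters, 2 other probe rules, slide as a block, leaving out the fourth slide, a replicate block, body weight as a covariate, the contrast's own groups alone, array weights, and leaving out each array in turn; leaving out arrays that stand apart in atrial or erythroid markers was added after the data were seen. RefSeq's promoter table supplied the promoter sequences.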

Additional observations from a re-analysis of the deposited data

Results flagged for a closer look

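Within groups of 6 hearts, the highest and lowest value of each of the 15 probes of these genes were set against the rest by Dixon's test. It marked 3 of the 60 sets of 6 values, and chance marks about 1 in 20. The Acaca signal of CON STZ mouse 3 was 1.96, with the next CON STZ heart at 1.503. The Elovl6 signal of the same mouse was -2.98, with the next at -2.16. The Mlycd signal of CON VEH mouse 5 was 5.78, with the next CON VEH heart at 6.04. Without CON STZ mouse 3 or any other single array, the calls for Acaca did not change.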

How the results depend on the processing

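The number of the 10 genes that passed was 2 for STZ in CON, and it was 1 with normexp background correction, 0 with median scaling, 0 with body weight in the model and 4 with array weights. For STZ in mG4H it was 0, and 1 with array weights. For mG4H against CON under VEH it was 2, and 0 with median scaling, 1 without slide 4, 1 with body weight and 1 without the 3 hearts high in atrial markers. For STZ averaged over genotypes it was 3, and 0 with median scaling, 0 with body weight and 5 with array weights. The causes were not tested. Leaving out single arrays gave 1 to 3 for STZ in CON, 1 to 2 for mG4H against CON under VEH, 2 to 4 for the average, and 0 in the other 3 comparisons. No single-gene call turned its direction under any setting. Without the 3 hearts high in atrial markers Acaca under VEH, and Me1 and Scd2 in CON and in the average, passed as with them. Acaca under VEH kept its call in 14 of 15 settings (0.92 to 1.17, log2) and with each array left out (0.98 to 1.099).

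Over all genes, the number past the threshold ranged over settings between 75 and 2407 for STZ in CON (1117 as reported), 0 and 211 for STZ in mG4H (75), 8 and 207 for mG4H against CON under VEH (23), 0 and 14 under STZ (3), and 339 and 3372 for the average (2908); array weights gave the highest number in each of these. The setting that tests each probe on its own counts probes and is not among them. Median scaling moved the median of all genes by at most about 0.11, to -0.048 against 0.061 for STZ in mG4H.

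The titles number the mice 1 to 6 in each group. Deviations of same-numbered mice of different groups correlated at a median r of 0.0033 (range -0.60 to 0.66 over 36 pairs), against a median of -0.022 over other pairs. The median gave no sign of pairing by number, and whether some numbers mark related mice was not tested. With a replicate block the numbers of the 10 genes that passed were 2, 0, 2, 0, 0 and 3, as without it.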

Other observations

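Genes whose probes lie within 1 Mb of the Acaca and Aacs probes (mm9) were set beside them for mG4H against CON under VEH. Among all genes 0.0815% passed by limma in that comparison, 2.87% had an unadjusted p under 0.05 and 1.02% had groups without overlap. Of 37 genes near Acaca 0 passed by limma and 3 had an unadjusted p under 0.05, with log2 differences of -0.47 to 0.88 and a median of 0.019. The groups did not overlap for 1 of the 37, Ccl5 (0.60). Of 25 genes near Aacs 0 passed and 0 had an unadjusted p under 0.05, with differences of -0.51 to 0.13. The difference of 1.04 for Acaca and of 0.70 for Aacs lay above those ranges. Both genes were taken because they rose in this comparison, so that is a description and not a test.

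The erythroid markers Hba-a1 and Alas2 averaged 1.08 in mG4H STZ mouse 3 and 6.84 in mG4H STZ mouse 2, against 4.05 to 5.02 in CON STZ hearts. Mouse 3 had the lowest Aacs (1.19) and Elovl6 (-3.31) and the highest Scd1 (0.86), Scd2 (2.23) and Me1 (5.85) of the mG4H STZ hearts, and mouse 2 the highest Acaca (2.39) and Elovl6 (-1.77) and the lowest Me1 (5.19). Without these 2 arrays, an alternative chosen after seeing the data, the calls for Acaca and Aacs under VEH and for Me1 and Scd2 in CON were as with them, and the average of Fasn did not pass (-0.26, adjusted p = 0.0649). The part of blood in these values was not tested.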
